A study of Mus musculus with 6 samples.

Results

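The genes described are the fibroblast growth factor (FGF) receptors and the partners they need at the cell surface and just below it: the receptor genes Fgfr1, Fgfr2, Fgfr3 and Fgfr4, the receptor-like gene Fgfrl1, the co-receptor gene Klb (Klotho beta) and the adaptor gene Frs2. They were chosen by gene name, and all 7 names were found among the 25416 genes of the table. The family was proposed with earlier results of the same contrast known, among them the low Fgfr2 level after knockdown of Setdb1. Levels and changes of the 7 genes are therefore given as a description, with no p-value, and nothing is read from how many of them changed. Where a gene of the family is said to pass a threshold, that too is a description and no test of it.

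The cells were AML12, a hepatocyte line from a mouse that carries a transgene for human TGF alpha, which activates the receptor EGFR, so both groups carry it. Control cells were given a scrambled RNA (siNC, n = 3), and the others an siRNA that targets Setdb1 (siSetdb1, n = 3), a gene for a histone H3 lysine 9 methyltransferase. Polyadenylated RNA was sequenced after 72 h. Whether the 3 samples of a group stem from separate cultures is not labelled, so p-values measure only how these samples spread, and part of that may be technical.

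FGF receptors are tyrosine kinases in the plasma membrane. A secreted FGF binds its receptor together with heparan sulfate chains on the cell surface, the receptors pair, and the adaptor FRS2 carries the signal to the RAS and ERK pathway, which in turn raises the transcription of its own inhibitors. In liver the main receptor is FGFR4. There the gut hormone FGF15 acts on hepatocytes through FGFR4 and Klotho beta and lowers bile acid synthesis.

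Setdb1 itself (ENSMUSG00000015697) was measured at 8.41, 8.54 and 9.43 FPKM in siNC and at 4.29, 4.21 and 3.29 FPKM in siSetdb1. Its mean fell by 55.3% (log2 fold change -0.995, SE 0.10, adjusted p = 0.00183 in limma). FPKM is a read count scaled by exon length and by the total of the library. Fold changes throughout are differences of log2(FPKM + 1), on which genes with low values change by less than their FPKM. The libraries held 16790582 to 17835060 reads, with 19731 to 20544 genes above 0. The siNC 1 library stood apart from the other siNC libraries on the second principal component (14.98, against -10.72 and -14.04), which carried 19.3% of the variance. On the first component, which separated the groups and carried 54.8%, it also lay apart (-26.65, against -11.65 and -10.77), farther from siSetdb1. Of all 12846 genes tested, 15.1% passed the threshold, an adjusted p under 0.05 (6.87% rose and 8.27% fell), and the 3 values of one group lay wholly above or below those of the other for 39.2%.

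The hepatocyte label was checked against marker genes. All 7 hepatocyte markers were in the table and tested, with a summed level of 2807 to 3212 FPKM in siNC and 3356 to 3469.6 FPKM in siSetdb1, nearly all of it from the keratin genes Krt8 and Krt18. Genes of secreted liver proteins were far lower than the keratins. The means of Alb, Ttr and Apoa1 were lower in siSetdb1 and that of Apob was higher, and only Ttr passed the threshold. Alb (albumin) was at 4.05 to 14.3 FPKM in siNC and 1.45 to 4.50 in siSetdb1 (log2 fold change -1.23, adjusted p = 0.107). Ttr (transthyretin) fell from 27.5 ± 10.5 to 7.02 ± 4.69 FPKM (SD, n = 3, adjusted p = 0.0247). Apoa1 was at 22.9 ± 8.19 FPKM in siNC and 8.38 ± 5.75 in siSetdb1 (adjusted p = 0.0646) and Apob at 7.83 ± 3.44 and 10.3 ± 1.30 FPKM (adjusted p = 0.344), neither past the threshold, while Krt18 rose (log2 fold change 0.30, adjusted p = 0.0364). Hnf4a, also a hepatocyte marker, was at 34.7 ± 4.10 and 29.8 ± 2.62 FPKM (adjusted p = 0.218). Of 5 markers of bile duct epithelium 4 were in the table, summed at 1611 to 1792 and 1604 to 1784 FPKM. Most of that came from Krt19, at 1300 ± 127 and 1353 ± 84.1 FPKM (adjusted p = 0.691). Krt7 and Sox9 rose and Spp1 fell. Since markers of hepatocytes and of bile duct epithelium were both high, the check does not tell these identities apart. Markers of fibroblasts or stellate cells (4 of 6 in the table) summed to 0.628 to 0.649 FPKM in siNC and 0.840 to 1.22 in siSetdb1, and those of endothelium (5 of 5) to 0.0553 to 0.122 and 0.118 to 0.193. Macrophage markers (4 of 5) summed to 4.75 to 6.64 and 2.39 to 3.17 FPKM, nearly all from Cd68, which fell, while the leukocyte gene Ptprc stayed under 0.01 FPKM. No marker that the table lists was at 0 in all libraries; the 4 markers without a row have no value here. Several markers moved with the groups, and their part in the values of the receptor genes was not tested. In bulk RNA fewer cells of a type and less RNA per cell cannot be told apart.

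Fgfr4 had the highest level in FPKM of the 7 genes in both groups (ENSMUSG00000005320, chromosome 13, 55152640 to 55168759, plus strand, mm10). It measured 9.05, 7.48 and 8.30 FPKM in siNC and 10.2, 13.0 and 12.1 FPKM in siSetdb1. Each siSetdb1 library lay above each siNC library. The means were 8.28 ± 0.784 and 11.8 ± 1.402 FPKM (SD, n = 3), a rise of 42.3% and a log2 fold change of 0.46 (SE 0.10). These values rest on 461 to 784 reads per library, and siSetdb1 1 was the closest of its group to the controls. The first rank rests on scaling by exon length, 3542 bases for Fgfr4 and 8747 for Frs2. In reads, Frs2 was above Fgfr4 in each library, with 650, 746 and 752 in siNC and 750, 849 and 843 in siSetdb1. Fgfr4 was past the threshold with all 6 libraries, and no longer so when siNC 2, siNC 3, siSetdb1 2 or siSetdb1 3 was left out.

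Fgfr2 had the largest change of the 5 family members tested. The gene, whose product comes in an epithelial and a mesenchymal splice form with different ligand preference, is listed on chromosome 7 from 130162451 to 133123350 on the minus strand (ENSMUSG00000030849). It measured 3.11, 2.72 and 3.30 FPKM in siNC and 0.947, 0.669 and 1.08 FPKM in siSetdb1. All siSetdb1 values lay below all siNC values, the highest of them (1.08 FPKM) well under the lowest control (2.72 FPKM). The means were 3.04 ± 0.299 and 0.899 ± 0.210 FPKM (SD, n = 3), so the siSetdb1 mean was 0.295 of the siNC mean, and the log2 fold change was -1.09 (SE 0.11). The reads behind them numbered 539, 488 and 586 in siNC and 169, 118 and 199 in siSetdb1. The coefficient of variation between libraries was 9.84% in siNC and 23.3% in siSetdb1, where read counting alone would give 4.31% and 7.86%. Leaving out siNC 1, the library that stood apart, moved the siNC mean to 3.01 FPKM. The gene-level values do not separate the splice forms.

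The windows around the annotated start are shown for Fgfr2 and Fgfr4, the receptor genes whose groups did not overlap, to let their base composition be compared. They are RefSeq windows of 300 bases on GRCm38.p6, from 250 bases before the start to 50 after it, written 5′ to 3′ on the strand of the gene, with each CG pair in capitals. The Fgfr2 window is chr7:130266759-130267058 on the minus strand and the Fgfr4 window is chr13:55152568-55152867 on the plus strand.
Fgfr2: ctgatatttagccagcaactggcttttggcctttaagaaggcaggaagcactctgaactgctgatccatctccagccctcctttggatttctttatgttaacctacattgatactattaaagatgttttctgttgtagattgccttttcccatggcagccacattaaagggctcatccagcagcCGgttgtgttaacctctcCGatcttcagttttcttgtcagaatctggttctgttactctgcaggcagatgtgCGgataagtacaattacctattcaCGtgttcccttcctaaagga
Fgfr4: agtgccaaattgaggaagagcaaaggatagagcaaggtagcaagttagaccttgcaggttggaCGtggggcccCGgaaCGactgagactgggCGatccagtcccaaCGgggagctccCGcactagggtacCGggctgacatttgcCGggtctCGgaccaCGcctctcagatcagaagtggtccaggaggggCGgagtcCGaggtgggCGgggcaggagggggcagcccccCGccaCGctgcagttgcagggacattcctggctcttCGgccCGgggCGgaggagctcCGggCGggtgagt
The Fgfr2 window holds 4 CG pairs (the motif CG, which reads the same on both strands) and 43.7% G or C, and the Fgfr4 window holds 20 CG pairs and 65.3% G or C. Over 32851 such windows of mouse genes the median was 7 CG pairs and 52.7% G or C, and 94.6% held at least 1 CG pair. As many CG pairs as in the Fgfr2 window or fewer were found in 38.0% of windows, against 75.2% for the Fgfr4 window. The other family members with a window had 26 and 30 (Fgfr3, with 2 starts), 37 (Fgfrl1), 24 (Frs2) and 10 (Klb) CG pairs; 6 of the 7 genes were matched. Base composition is a description of the start that RefSeq annotates, and no reading of chromatin or DNA methylation was used here. All but 1 of the GENCODE M21 transcripts of Fgfr2 lie at or below position 130266263, downstream of its window. The 4 CG pairs of the Fgfr2 window therefore do not describe the starts of those transcripts.

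Fgfr3, a receptor best known from cartilage and bone growth (ENSMUSG00000054252, chromosome 5, 33721674 to 33737068, plus strand), was present at a level close to that of Fgfr2 in siNC. It measured 2.90, 2.42 and 3.44 FPKM in siNC and 2.63, 2.12 and 2.92 FPKM in siSetdb1. The groups overlapped, and each group spread more widely than the means were apart (2.92 ± 0.508 and 2.56 ± 0.406 FPKM, log2 fold change -0.14, SE 0.13).

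Fgfr1, a receptor typical of mesenchymal cells (ENSMUSG00000031565, chromosome 8, 25513654 to 25575718, plus strand), was close to absent. It was listed at 0.0121 FPKM in siNC 1, which is 2 reads, and at 0 in the other 5 libraries. At the depth of those 5 libraries a count of 0 allows up to 3 reads, or 0.0170 to 0.0178 FPKM, so no difference between the groups could be detected and no fold is given. Such limits cover counting error only.

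Fgfrl1 encodes a receptor-like protein that binds FGF but has no kinase domain (ENSMUSG00000008090, chromosome 5, 108692382 to 108706924, plus strand). It measured 2.08, 1.55 and 1.42 FPKM in siNC and 1.23, 1.60 and 1.31 FPKM in siSetdb1. The groups overlapped, with siNC 1 highest of all and siSetdb1 2 above both of the other siNC libraries. The means were 1.68 ± 0.347 and 1.38 ± 0.196 FPKM, and their log2 fold change of -0.17 (SE 0.12) shrank to -0.07 without siNC 1.

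Klb, the membrane co-receptor that lets FGFR4 respond to FGF15 and FGFR1 to FGF21 (ENSMUSG00000029195, chromosome 5, 65348314 to 65384007, plus strand), was measured at only a few reads per library. It was at 0.118, 0.0126 and 0.0896 FPKM in siNC and at 0.0509, 0.0258 and 0.0370 FPKM in siSetdb1. These values stand for 9, 1 and 7 reads and for 4, 2 and 3 reads. The groups overlapped, and the highest and the lowest value both came from siNC. Over each group, 17 reads in siNC and 9 in siSetdb1 gave a depth-corrected ratio of 0.521, with an exact 95% interval of 0.205 to 1.24 for counting error only, so a change of Klb was not detectable at this depth. Kl, the related co-receptor for FGF23 in kidney, was listed above 0 in 1 library, at 0.00616 FPKM.

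Frs2, the membrane-bound adaptor that FGF receptors phosphorylate (ENSMUSG00000020170, chromosome 10, 117069427 to 117148534, minus strand), was the most even of the family between libraries. It measured 4.43, 4.90 and 5.00 FPKM in siNC and 4.96, 5.69 and 5.40 FPKM in siSetdb1. The groups touched, since siSetdb1 1 lay just under siNC 3. The means were 4.78 ± 0.309 and 5.35 ± 0.364 FPKM, and the log2 fold change was 0.14 (SE 0.08).

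The gene models bear on what the levels of Fgfr2 and Fgfr3 count. GENCODE M21 lists 27 transcripts of Fgfr2, of which all but 1 lie wholly at or below position 130266263, just downstream of the RefSeq window printed above. The remaining transcript reaches 133123350 through 2 far upstream exons (133081757 to 133081860 and 133123141 to 133123350), which lie within exons of Ctbp2, a co-repressor gene on the same strand. Those exons make up 314 of 10328 exon bases, or 3.04%, so reads of Ctbp2 could add to the Fgfr2 values only there. Of the exon bases of Fgfr3, 13.9% are shared with the antisense gene G630022F23Rik, which had at most 0.0158 FPKM in any library. Frs2, Fgfr4, Fgfrl1 and Klb share no exon base with another gene. No strand-marking step is named in the protocol, and reads of overlapping genes cannot be told apart.

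Of the 7 genes, 5 passed the filter on low values, with Fgfr1 and Klb left out, and 2 of those 5, Fgfr2 and Fgfr4, were past the threshold and had groups that did not overlap. The shares for all tested genes were 15.1% and 39.2%. Since the contrast was known when the family was proposed, nothing is read from these counts.

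**Figure D1:**
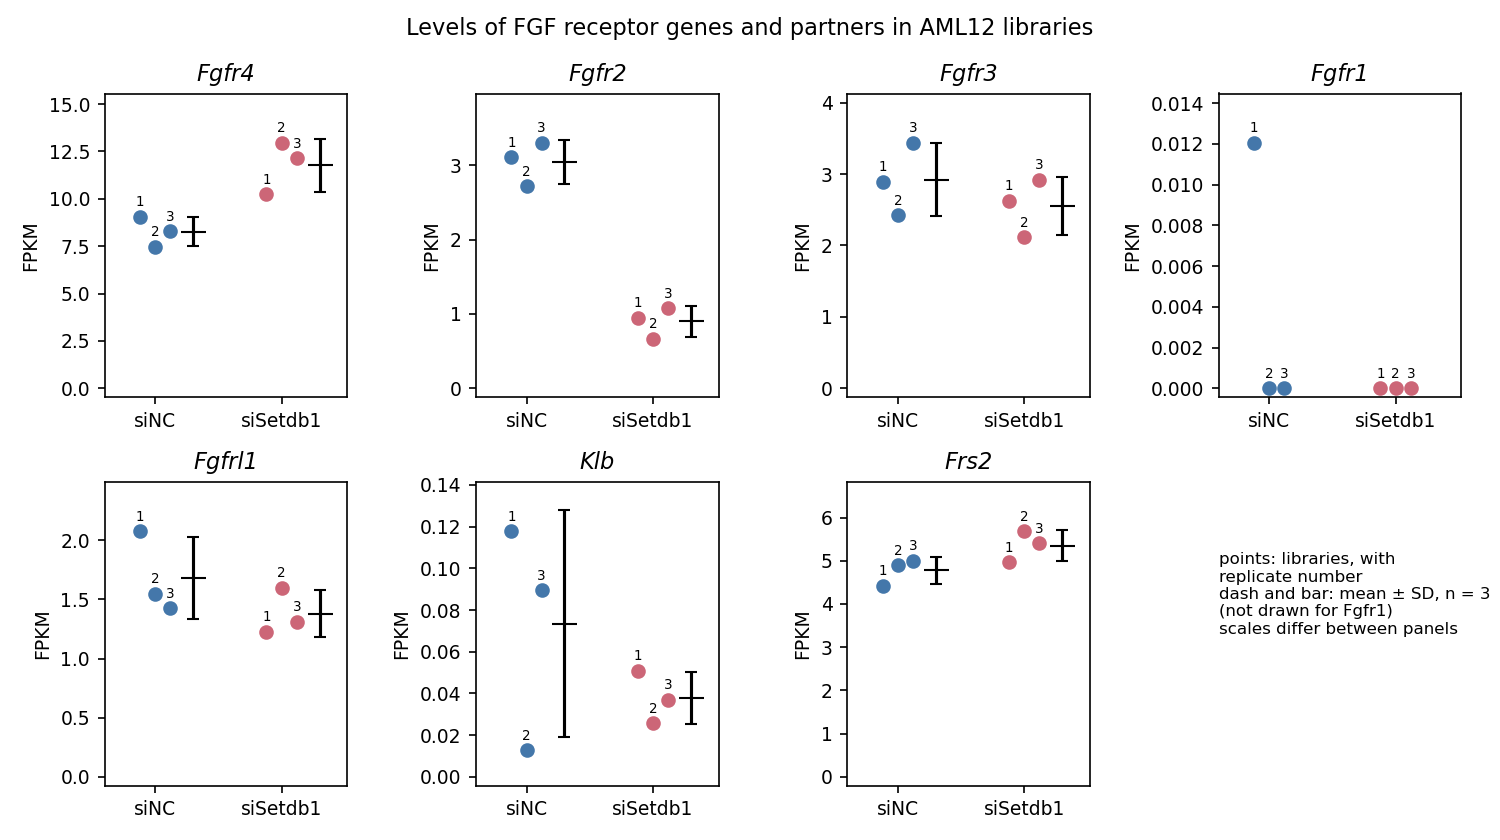
FPKM of the 7 genes in each siNC (blue) and siSetdb1 (red) library, with the replicate number beside each point and the mean ± SD (n = 3) as a dash and bar, except for Fgfr1, which was listed at 0 in 5 libraries. Scales differ between panels; Fgfr2 lies lower and Fgfr4 higher in all siSetdb1 libraries, while the groups overlap in the other panels.

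The order of the levels in FPKM, which depends on the exon lengths used, changed between the groups. In siNC it ran from Fgfr4 through Frs2, Fgfr2, Fgfr3, Fgfrl1 and Klb to Fgfr1. Fgfr2 and Fgfr3 overlapped in their values there, at means of 3.04 and 2.92 FPKM. Klb and Fgfr1 were not measurably separated in all libraries. The lowest Klb value (0.0126 FPKM) was 1 read and the highest Fgfr1 value (0.0121 FPKM) was 2 reads. Each other neighbour in the order was separated in all libraries. In siSetdb1 Fgfr2 had dropped below both Fgfr3 and Fgfrl1, and the order was Fgfr4, Frs2, Fgfr3, Fgfrl1, Fgfr2, Klb and Fgfr1, with no overlap between neighbours. Between Klb and Fgfr1 this rested on 4, 2 and 3 reads against 0.

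Summed over Fgfr1 to Fgfr4, the level of FGF receptor mRNA was 15.1, 12.6 and 15.0 FPKM in siNC and 13.8, 15.8 and 16.1 FPKM in siSetdb1. These sums overlapped between the groups, with means of 14.2 ± 1.405 and 15.2 ± 1.25 FPKM. What differed was the make-up of the sum in FPKM. Reads were divided by exon lengths of 10328 bases for Fgfr2 and 3542 for Fgfr4. In siNC 1 the reads themselves were nearly equal, at 539 for Fgfr2 and 538 for Fgfr4. The size of the shares therefore depends on these lengths, and with other lengths the sum could move differently between the groups. The share of Fgfr2 was 20.6%, 21.5% and 22.0% in siNC and 6.86%, 4.25% and 6.69% in siSetdb1, and the share of Fgfr4 was 60.1%, 59.3% and 55.2% against 74.1%, 82.3% and 75.2%. Neither set of shares overlapped between the groups. The shares, and the ratios given next, are computed from the FPKM values above and are no separate result. The share of Fgfr3 averaged 20.4 ± 2.11% and 16.9 ± 2.99%.

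Within a library, Fgfr4 FPKM was 2.91, 2.75 and 2.51 times Fgfr2 FPKM in siNC and 10.8, 19.4 and 11.2 times in siSetdb1. A ratio within a library does not depend on how the libraries are scaled to each other, but its size depends on the exon lengths used. Fgfr3 against Fgfr2 moved likewise, from 0.955 ± 0.0771 to 2.88 ± 0.249 times (SD, n = 3). The siSetdb1 2 library, with the lowest Fgfr2 and the highest Fgfr4 value of its group, gave the most extreme ratio in both cases.

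**Figure D2:**
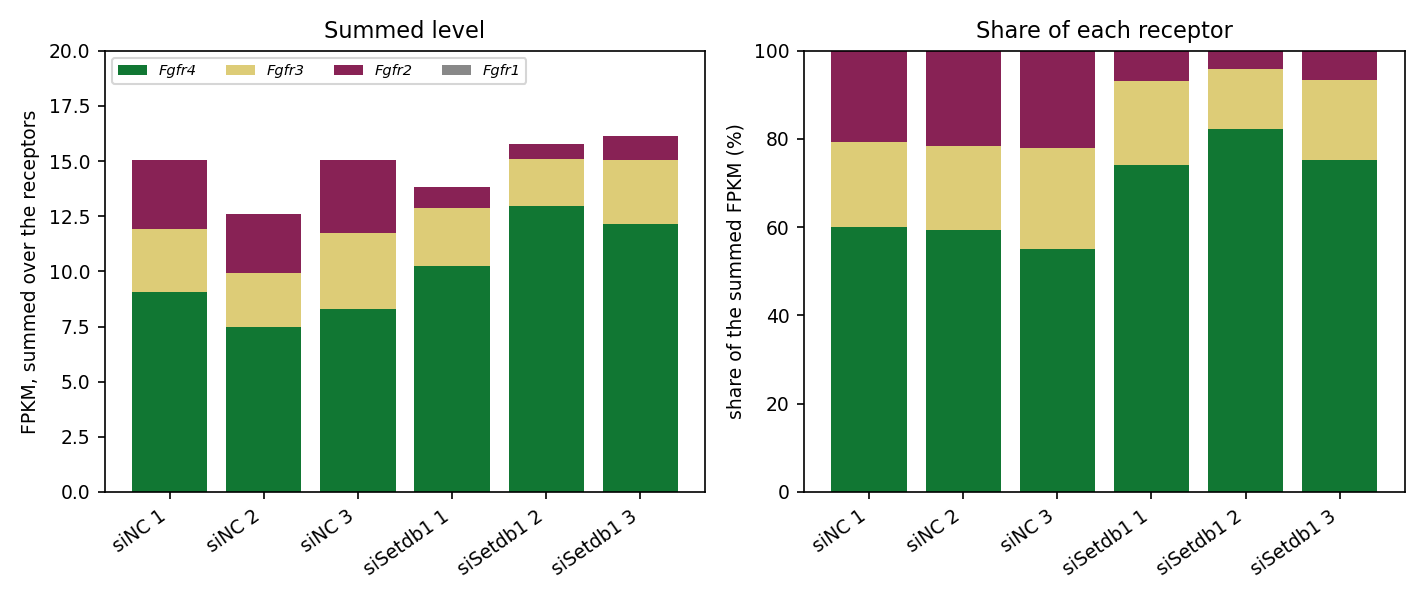
Summed FPKM of Fgfr1 to Fgfr4 (left) and the share of each receptor in that sum in percent (right), 1 bar per library. The sums overlap between groups (12.6 to 15.1 in siNC, 13.8 to 16.1 in siSetdb1), while the Fgfr2 share is 20.6% to 22.0% in siNC and 4.25% to 6.86% in siSetdb1; Fgfr1 is too low to be seen.

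Among receptor tyrosine kinases, the FGF receptors were not the most abundant by FPKM in these cells. Of 18 other receptor kinase genes tested, 8 had a higher siNC mean than Fgfr4 and 13 a higher mean than Fgfr2 or Fgfr3. Examples chosen after their values were seen are Axl at 132 ± 7.28 FPKM, the hepatocyte growth factor receptor gene Met at 47.1 ± 5.90 FPKM and Egfr at 7.97 ± 0.846 FPKM, the last close to Fgfr4. Of the 18 genes 3 rose and 2 fell, with a median log2 fold change of 0.08 against -0.02 for all tested genes. Epha2, an ephrin receptor gene, rose from 33.9 ± 3.20 to 58.1 ± 4.84 FPKM (log2 change 0.76, adjusted p = 0.0036). Ephb4, another ephrin receptor gene, fell from 18.6 ± 2.49 to 9.33 ± 0.543 FPKM (-0.91, adjusted p = 0.00238). Ror1 rose (0.52, adjusted p = 0.01), as did the insulin-like growth factor receptor gene Igf1r (0.27, adjusted p = 0.0382), and Ryk fell (-0.22, adjusted p = 0.0488); the calls of Igf1r and Ryk ended without any 1 library other than siNC 1, and that of Ryk also with median-ratio scaling or in limma-voom.

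The other genes of the FGF pathway were read from 7 lists (109 genes, 87 in the table, 63 tested). Across them 21 genes rose and 4 fell, with a median log2 fold change of 0.17, beside -0.02 for all tested genes and the 6.87% and 8.27% of all genes that rose and fell. Of the 21 rises 12 lay in 1 list, the feedback and target genes. The pooled count of calls was 15 without siNC 2, 13 without siSetdb1 1, 11 without siSetdb1 2 and 14 without siSetdb1 3, out of 25 with all libraries.

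Few FGF ligand genes were expressed. Of 22 ligand genes 7 were in the table and 3 passed the filter. Fgf1, which binds all FGF receptors, was at 9.07 ± 1.29 FPKM in siNC and 7.86 ± 1.18 in siSetdb1 (log2 fold change -0.19, adjusted p = 0.359). Fgf13 and Fgf11 belong to the branch that stays inside the cell. Fgf13 fell from 19.3, 21.7 and 19.2 FPKM to 14.0, 13.6 and 14.1 FPKM (-0.50, SE 0.07, adjusted p = 0.00594), and Fgf11 was at 3.23 ± 0.450 and 3.24 ± 0.393 FPKM (adjusted p = 0.986). No ligand rose by limma-trend; at an unadjusted p under 0.05 and in limma-voom the count of rises was also 0.

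Of 18 proteoglycans and other co-factors of FGF binding, 16 were in the table and 9 tested, of which 2 rose and 1 fell (median log2 fold change 0.20). Fgfbp1, a secreted carrier that frees FGF from the matrix, rose from 46.5 ± 0.716 to 64.3 ± 3.13 FPKM (log2 change 0.46, adjusted p = 0.00548). Flrt3, a membrane protein that binds FGF receptors, rose from 2.60 ± 0.528 to 4.56 ± 0.562 FPKM (0.63, adjusted p = 0.0173). Fgfbp3, a relative of Fgfbp1, fell from 2.42 ± 0.291 to 1.56 ± 0.119 FPKM (-0.42, adjusted p = 0.0274). This list had 1 call without siNC 2 or without any 1 siSetdb1 library, and 7 without siNC 1.

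Of 13 tested enzymes that build or edit heparan sulfate (17 listed, 16 in the table), 3 rose and 0 fell, while the median of the list was -0.10; at an unadjusted p under 0.05, 4 were lower. Limma-voom also called 0 lower. Ndst1, which starts the sulfation of the chain, rose from 34.2 ± 2.53 to 43.8 ± 0.606 FPKM (log2 change 0.35, adjusted p = 0.0198). Glce, which converts glucuronic to iduronic acid, rose from 4.66 ± 0.624 to 6.48 ± 0.213 FPKM (0.41, adjusted p = 0.0283). B4galt7, an enzyme of the linker that joins the chain to its protein, rose from 6.73 ± 0.507 to 8.55 ± 0.389 FPKM (0.31, adjusted p = 0.0374). All 3 calls ended without siNC 2 or without any 1 siSetdb1 library, and that of B4galt7 also without siNC 3.

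Of 16 adaptors and effectors that act at the receptor next to Frs2, 15 were tested, and 4 rose and 1 fell (median log2 fold change 0.15). Shc1, an adaptor shared by many receptor kinases, rose from 56.1 ± 2.53 to 73.6 ± 2.90 FPKM (0.38, adjusted p = 0.0113). Sos2, an exchange factor that activates RAS, rose from 5.04 ± 0.832 to 6.95 ± 0.361 FPKM (0.41, adjusted p = 0.047). Cbl, a ubiquitin ligase that marks receptors for breakdown, rose from 5.82 ± 0.420 to 7.49 ± 0.448 FPKM (0.32, adjusted p = 0.0375). Plcg1, a phospholipase that FGF receptors bind, fell from 11.8 ± 1.18 to 9.09 ± 0.589 FPKM (-0.34, adjusted p = 0.0411). The list had 2 calls without siNC 2, 1 each without siNC 3, siSetdb1 2 or siSetdb1 3, and all 5 calls ended without siSetdb1 1.

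Feedback and target genes of FGF and ERK signalling were the list with the most calls. Of 20 genes 18 were in the table and 17 tested; 12 rose and 1 fell, and the median log2 fold change was 0.54. Rises of Egr1, Dusp5 and Dusp6 were among the results known when the list was drawn up, and these genes also respond to other receptor kinases that act through ERK. Egr1, an immediate-early transcription factor, rose from 5.08 ± 0.598 to 63.6 ± 14.3 FPKM (3.39, adjusted p = 0.000139). Fos, another immediate-early gene, rose from 2.81, 2.71 and 2.95 FPKM to 10.1, 11.0 and 12.3 FPKM (1.66, adjusted p = 0.000149). Dusp5, an ERK phosphatase, rose by 1.67 on the log2 scale (adjusted p = 0.00151).

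The Sprouty genes, inhibitors of receptor kinase signalling, did not move together. Spry1 fell from 1.75 ± 0.202 to 1.02 ± 0.139 FPKM (log2 change -0.44, adjusted p = 0.0267). Spry2, a gene picked with its values in view, rose from 6.56 ± 0.592 to 10.1 ± 1.14 FPKM (0.55, adjusted p = 0.0121). Spry4, also named afterwards, was at 0.413, 0.302 and 0.380 FPKM in siNC and 0.779, 1.15 and 1.29 FPKM in siSetdb1. It passed the filter of 0.5 FPKM only through siSetdb1, the group where it is high, so its place among the 12 rises was set in part by the filter; with a filter at 1 FPKM the list had 11. Etv4 and Etv5, transcription factors that FGF signalling induces in many tissues, also named after the fact, rose by 0.58 and 0.54 on the log2 scale (adjusted p = 0.0068 and 0.00816). The call of Spry1 ended without siNC 3 or any 1 siSetdb1 library, and the list had 8 calls in place of 13 without siSetdb1 2.

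Genes at the end of the liver FGF axis were mostly not expressed. Of 11 bile acid genes 9 were in the table and 2 tested. Cyp7a1, the enzyme that FGF15 represses in liver, was at most 0.0143 FPKM in any library and at 0 in 4 of them. Cyp27a1, of the alternative bile acid pathway, was at 6.22 ± 0.488 FPKM in siNC and 4.90 ± 0.315 in siSetdb1 (log2 fold change -0.29, adjusted p = 0.052). Nr1h4, the bile acid receptor gene, was at 98.3 ± 3.85 and 86.8 ± 10.0 FPKM (-0.18, adjusted p = 0.221). Neither passed by limma-trend, though Cyp27a1 did with a filter at 1 FPKM or with the variance trend fitted on reads; 1 had an unadjusted p under 0.05 and limma-voom called 0.

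Splicing regulators that choose between the exons of FGF receptors were tested for 4 of 5 genes, and 0 passed by limma-trend or by limma-voom, with 1 at an unadjusted p under 0.05. Esrp2, which favours the epithelial form of Fgfr2, was at 9.75 ± 0.884 FPKM in siNC and 11.0 ± 0.454 in siSetdb1 (log2 fold change 0.17, adjusted p = 0.203), and passed without siNC 1 or with GC and length trends removed. Ptbp1 was at 107 ± 9.93 and 101 ± 1.60 FPKM (adjusted p = 0.542), Ptbp2 at 3.20 ± 0.627 and 4.44 ± 0.640 (adjusted p = 0.0997) and Rbfox2 at 16.3 ± 0.856 and 17.7 ± 0.2996 (adjusted p = 0.278). Esrp1 was under 0.01 FPKM in every library.

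**Figure D3:**
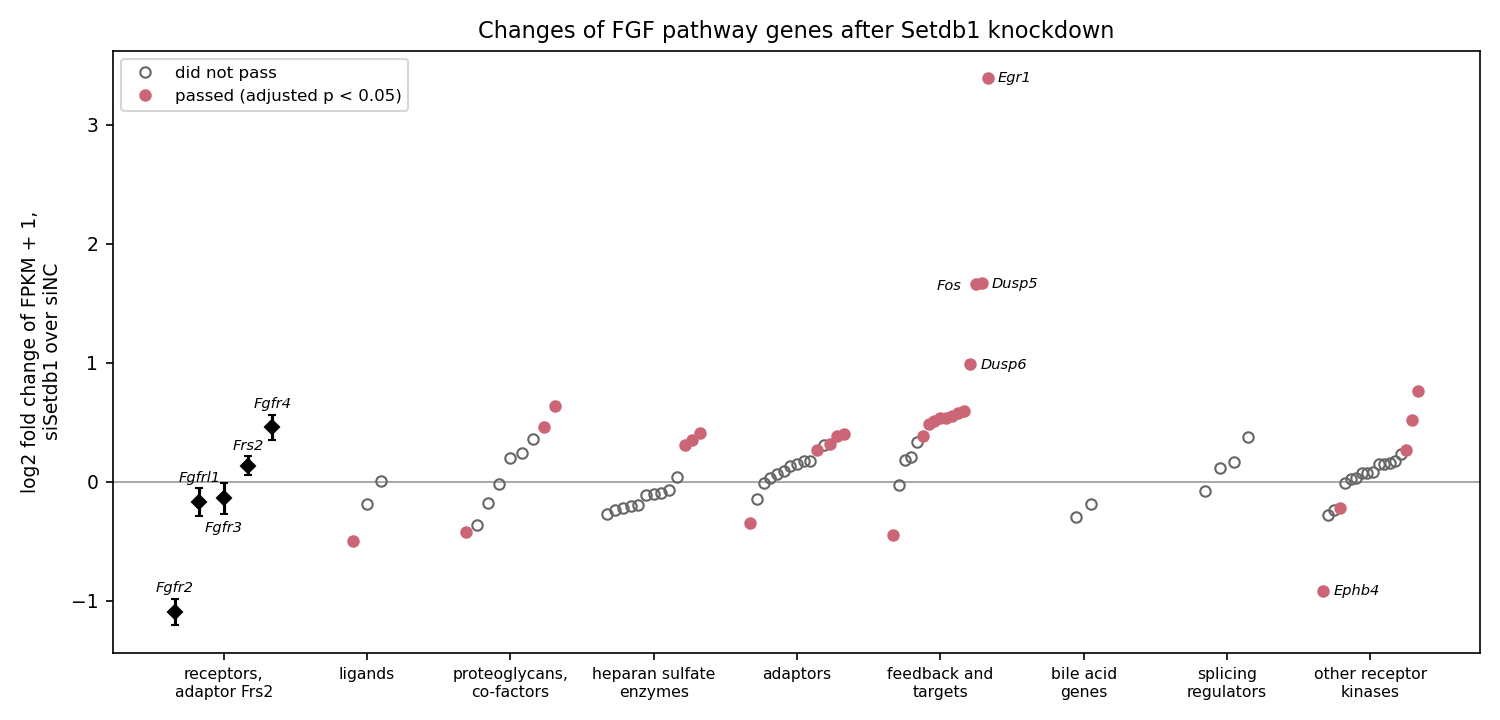
Difference of group means on the log2(FPKM + 1) scale, siSetdb1 minus siNC, for the 5 family members tested (diamonds, with their standard error) and for each tested gene of the pathway lists and of the other receptor tyrosine kinases (circles, filled where the adjusted p was under 0.05). Fgfr2 lies at -1.09 and Fgfr4 at 0.46; 12 of 17 feedback and target genes are filled above 0 (1 of them, Spry4, entered only through siSetdb1), and Egr1 lies highest at 3.39.

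Genes near the 7 loci were read to see whether neighbours moved with them. Within 500 kb of the listed spans lay 208 genes of the table, 101 of them tested, of which 5 rose and 7 fell. That is 11.9%, against 15.1% of all tested genes, and the median log2 fold change was 0.04. The 101 genes include 19 counted from the listed span of Fgfr2, which its longest transcript sets. Most of those 19 start over 500 kb upstream of the other Fgfr2 transcripts. Near Fgfr2, Oat, an enzyme gene of ornithine breakdown, fell from 46.4 ± 3.22 to 34.9 ± 1.17 FPKM (-0.40, adjusted p = 0.0135) and Ctbp2 rose from 13.4 ± 0.831 to 17.2 ± 0.627 FPKM (0.34, adjusted p = 0.0216). Oat lies inside the span of the long transcript and Ctbp2 overlaps its far end, at -2310 and -2858 kb from the start of the other Fgfr2 transcripts, that is, upstream of it. The Ctbp2 change was opposite to that of Fgfr2, the gene it shares exon bases with.

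Near Fgfr4 the cadherin-related gene Cdhr2 rose from 4.69 ± 0.785 to 7.15 ± 0.389 FPKM (log2 change 0.53, adjusted p = 0.0212), B4galt7 rose as given above, and Mxd3, a partner of MAX, fell from 2.74 ± 0.743 to 1.38 ± 0.0788 FPKM (-0.63, adjusted p = 0.027). Near Fgfrl1 the Polycomb gene Pcgf3 rose (0.38, adjusted p = 0.0113) and the ATP synthase subunit gene Atp5k fell (-0.45, adjusted p = 0.0356). Near Fgfr1 the lysosomal enzyme gene Hgsnat rose (0.35, adjusted p = 0.0449) and Tm2d2 fell (-0.36, adjusted p = 0.0291).

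The other 3 neighbours that fell are processed pseudogenes in the deposited table, whose reads may be shared with their parent genes. Gm10059 near Fgfr3 was at 2.17 ± 0.236 and 0.896 ± 0.191 FPKM (adjusted p = 0.00638), and Gm5781 near Frs2 at 1.23 ± 0.169 and 0.345 ± 0.0704 FPKM. Both are short, listed from 33759366 to 33759536 and from 116972766 to 116973208. Their FPKM therefore stand for few reads, above all in siSetdb1. Gm42627 near Fgfrl1, also short (108903226 to 108903449), was at 0.532, 0.770 and 0.780 FPKM in siNC and listed at 0 in all siSetdb1 libraries. As for Fgfr1, a count of 0 allows up to 3 reads. The siNC values of Gm42627 stand for no more reads than that, so its call does not show a fall. Gm5781 and Gm42627 passed the filter of 0.5 FPKM only through siNC, the group where they are high, so their place among the 7 falls was set in part by the filter. Near Klb 0 of 13 tested genes passed by limma-trend or limma-voom, with 3 at an unadjusted p under 0.05. The call of Gm10059 ended in limma-voom and that of Gm42627 with the variance trend fitted on reads. Except for the 3 pseudogenes, each of these neighbour calls ended when at least 1 of the siSetdb1 libraries was left out.

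**Figure D4:**
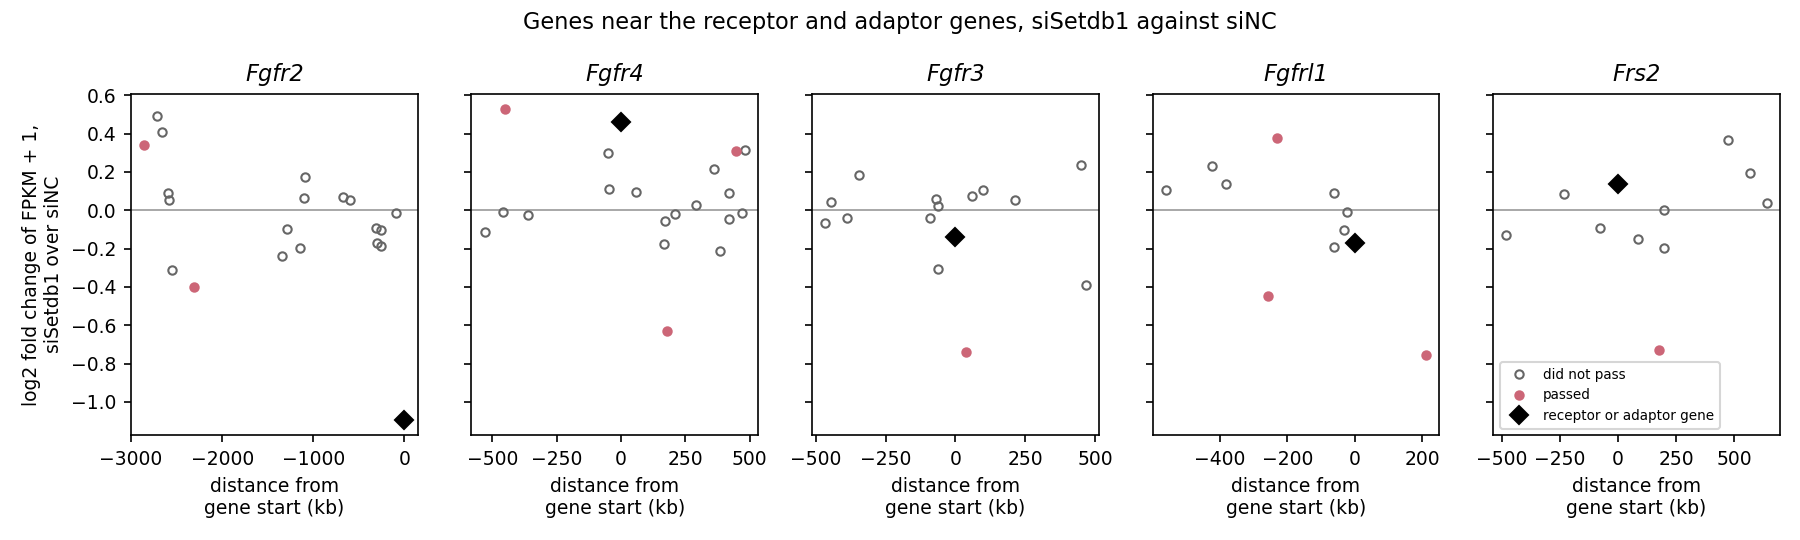
Change of tested genes within 500 kb of 5 loci, on the log2(FPKM + 1) scale (vertical axis), against their distance in kb from the start of the named gene along its strand, negative upstream (horizontal axis, range differing between panels); filled circles had an adjusted p under 0.05 and the diamond is the named gene. The diamond of Fgfr2 at -1.09 lies below all of its neighbours, whose changes run from -0.40 to 0.49. Neighbours were counted from listed spans, which for Fgfr2 is that of its longest transcript. Its neighbours therefore reach -2858 kb, and both ends of that range of changes come from genes over 500 kb away.

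Genes with profiles most like that of Fgfr2 over the 6 libraries were found by the root mean square difference of log2(FPKM + 1) values centred on each gene's mean. Among them were Nfkbia, the NF-kappa-B inhibitor (difference 0.0580), Rtn4rl1, a Nogo receptor relative (0.0869), Eci2, an enzyme of fatty acid oxidation (0.0884), and Id3, an inhibitor of helix-loop-helix factors (0.0899). Nfkbia stood at 90.2, 71.4 and 85.2 FPKM in siNC and at 39.5, 32.9 and 41.5 FPKM in siSetdb1. Like Fgfr2 it was lowest in replicate 2 within each group. Eci2 went from 13.2 ± 1.13 to 5.32 ± 0.712 FPKM. These genes were picked for their likeness in the same libraries, so it is a description only.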

How the data were processed

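RNA of 6 AML12 samples was sequenced with single-end reads (BGISEQ-500) from oligo(dT)-selected RNA, per the labels' protocols. Per the submitters' processing notes, the build was mm10 and the tools included RSEM 1.2.12, Bowtie2 2.2.5, HISAT2 2.0.4 and DESeq2 1.4.5, with no role given. The authors deposited 1 value per gene and sample, normalized to FPKM before deposit. The file headers name no unit, and FPKM was inferred because the values, with GENCODE M21 exon lengths (25372 of 25416 genes), gave whole reads within 0.01 for 98.8% of genes. FPKM depends on the total of a library, so a gain in abundant genes lowers the others, and how reads fitting several genes were treated is not given in the sources used here.

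Genes that reached 0.5 FPKM in 3 libraries or more (12846; 12570 left out) were tested by limma 3.58.1 (R 4.3.3) on log2(FPKM + 1) (trend, robust, group as the only term), two-sided, with Benjamini-Hochberg adjustment over all tested genes and a threshold of 0.05. The procedure was tested on simulated data, with changes set only in genes with many reads and the same spread for all genes. It therefore does not show how genes with few reads or a wide spread are called. Groups came from the sample titles. Shared replicate numbers were not used for pairing.

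The family, the gene lists and the tests were chosen with earlier results of these data known. Named genes are the 7 family members, Setdb1, up to 3 passing genes with the largest rise and 3 with the largest fall per list, all tested genes of lists with 6 or fewer tested, each passing neighbour within 500 kb and the 5 genes most like Fgfr2, of which 1 is not reported here; others are marked as chosen after their values were seen. Alternatives were another pseudocount, filter, scaling, test, variance trend and distance, a replicate block, removal of GC and length trends, and leaving out each library. In fits that leave out a library the same genes were tested.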

Additional observations from a re-analysis of the deposited data

How the results depend on the processing

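The alternatives refit the same libraries and add no independent evidence for the receptor genes. The Fgfr2 log2 fold change was -1.67 with a pseudocount of 0.1 and -1.78 in limma-voom on recovered reads, against -1.09, since the pseudocount of 1 shrinks changes of low values. Fgfr4 was past the threshold under 8 of 14 alternatives of the test; it was not with no filter, with the replicate block, or without siNC 2, siNC 3, siSetdb1 2 or siSetdb1 3. Fgfr3, Fgfrl1 and Frs2 were past it under none of the 14. The family was proposed with this contrast known, so these calls only describe how the values depend on processing.

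Of all tested genes 1945 passed (883 rose, 1062 fell), 890 with no filter on low values and 683 to 2176 when a library was left out. Median-ratio scaling turned the split to 1019 higher and 907 lower, and removing GC and length trends to 1452 and 1266. Of the pathway genes 25 passed, 13 with no filter and 11 to 33 when a library was left out. Neighbours that passed numbered 7 within 250 kb and 24 within 1000 kb, where the number of genes tested also changed, to 64 and 159. The named genes outside the family gave 545 values under the alternatives, of which 425 kept their side of the threshold and 0 reversed; no filter changed the call of 17 of the 39 named genes, and the cause of these changes was not tested.

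With the replicate number as a block 1015 genes and 15 pathway genes passed. No label pairs the samples, and deviations of same-numbered libraries from their group means correlated at -0.157, 0.167 and -0.172. The block left the log2 fold changes as they were (-1.09 for Fgfr2 and 0.46 for Fgfr4), so it says nothing on the size of an effect.

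Klb and Fgfr1 were limited by depth, with 17 and 9 reads per group for Klb and 2 reads in all for Fgfr1.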
